A study of Mus musculus with 8 samples.

Results

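The genes described here are 37 genes of sterol and fatty acid synthesis, taken by name from the deposited table of 25450 genes; all 37 were found, each in 1 row. The sterol branch held 18 genes, the fatty acid branch 14, and 5 genes regulate or handle sterols. The cells were cultured pancreatic ductal adenocarcinoma cells of the C57BL/6 mouse background, either with Setd2 knocked out (KO) or wild type (WT); Setd2 is the methyltransferase that makes H3K36me3. By CUT&Tag, in which an antibody guides a transposase that cuts out and tags the DNA around a histone mark, the study profiled H3K27ac at promoters in KO and WT cells labelled vitro, H3K27ac at promoters in KO and WT cells without that label, H3K27me3 at promoters in KO and WT cells, and H3K36me3 over gene bodies in KO and WT cells. The title of the series describes sorting from orthotopic tumours, while each sample is labelled as cultured tumour cells, so the H3K27ac libraries without the vitro label are named by that absence only. Lines were established for each genotype, and the sources used here give neither the number of clones nor the alleles or the tumour driver. Each of the 8 groups was 1 library, so no difference below has a replicate check and no test was run.

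Cholesterol is built from acetyl-CoA through mevalonate and farnesyl diphosphate (by enzymes that include HMGCS1, MVK and FDPS) to squalene, which SQLE, LSS and CYP51 then oxidise, close into rings and trim. Fatty acids are built from the same acetyl-CoA, which ACLY and ACSS2 supply, by carboxylation (ACACA) and repeated condensation (FASN), and are then lengthened and desaturated. The transcription factors SREBP2 (gene Srebf2) and SREBP1 (gene Srebf1) switch on genes of both branches, often beside the factor NF-Y, and the sensor protein Insig1 holds them in the endoplasmic reticulum when sterol is plentiful. H3K27ac marks active promoters, H3K27me3 is the mark of Polycomb repression, and H3K36me3 lies over transcribed gene bodies.

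RefSeq promoter sequences (assembly GRCm38.p6, 250 bases before to 50 after the start) were found for 30 of the genes; the others were Fads1, Scd1, Fdps, Sqle, Scd2, Fdft1 and Stard4. The sequences below are those of Fads6, whose H3K27ac was lower in KO in both settings, of Cyp51, Lss and Srebf2, sterol genes and a regulator with among the lowest vitro ratios, of Fads2, a fatty acid desaturase, and of Hmgcs1, added once the motif matches were known. Capitals mark the CCAAT box that NF-Y binds, or its reverse complement ATTGG, and, in Hmgcs1, the sterol regulatory element core TCACCCCAC. The regions are chr11:115297513-115297812 (minus strand) for Fads6, chr5:4104648-4104947 (minus) for Cyp51, chr10:76531355-76531654 (plus) for Lss, chr15:82147019-82147318 (plus) for Srebf2, chr19:10101454-10101753 (minus) for Fads2 and chr13:119690101-119690400 (plus) for Hmgcs1.
Fads6: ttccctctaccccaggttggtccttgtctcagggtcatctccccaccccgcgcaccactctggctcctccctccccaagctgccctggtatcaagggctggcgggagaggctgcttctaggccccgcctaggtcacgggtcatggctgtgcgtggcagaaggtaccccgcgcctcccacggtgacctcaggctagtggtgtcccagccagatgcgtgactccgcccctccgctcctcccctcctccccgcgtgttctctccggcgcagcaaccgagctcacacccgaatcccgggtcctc
Cyp51: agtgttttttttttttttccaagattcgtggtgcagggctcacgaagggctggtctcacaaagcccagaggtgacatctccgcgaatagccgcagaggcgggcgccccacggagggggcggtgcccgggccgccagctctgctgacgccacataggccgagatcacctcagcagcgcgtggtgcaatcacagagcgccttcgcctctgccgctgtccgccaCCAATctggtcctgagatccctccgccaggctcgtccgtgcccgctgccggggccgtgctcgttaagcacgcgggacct
Lss: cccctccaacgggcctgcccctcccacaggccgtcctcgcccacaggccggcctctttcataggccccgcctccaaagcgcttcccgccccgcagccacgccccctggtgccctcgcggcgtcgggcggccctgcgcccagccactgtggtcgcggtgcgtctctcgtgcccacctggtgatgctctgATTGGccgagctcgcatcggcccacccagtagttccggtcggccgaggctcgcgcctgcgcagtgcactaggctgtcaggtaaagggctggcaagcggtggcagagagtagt
Srebf2: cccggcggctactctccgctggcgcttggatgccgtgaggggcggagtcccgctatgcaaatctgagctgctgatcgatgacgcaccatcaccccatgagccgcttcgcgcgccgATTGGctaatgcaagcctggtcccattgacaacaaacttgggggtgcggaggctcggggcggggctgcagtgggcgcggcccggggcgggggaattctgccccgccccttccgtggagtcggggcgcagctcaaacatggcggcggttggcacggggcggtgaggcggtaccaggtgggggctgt
Fads2: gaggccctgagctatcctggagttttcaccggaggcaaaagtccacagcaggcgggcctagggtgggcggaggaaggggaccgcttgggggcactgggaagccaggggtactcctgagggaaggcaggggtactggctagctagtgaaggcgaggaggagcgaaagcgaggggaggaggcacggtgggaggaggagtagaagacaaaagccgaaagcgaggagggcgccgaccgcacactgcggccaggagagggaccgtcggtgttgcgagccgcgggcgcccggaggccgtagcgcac
Hmgcs1: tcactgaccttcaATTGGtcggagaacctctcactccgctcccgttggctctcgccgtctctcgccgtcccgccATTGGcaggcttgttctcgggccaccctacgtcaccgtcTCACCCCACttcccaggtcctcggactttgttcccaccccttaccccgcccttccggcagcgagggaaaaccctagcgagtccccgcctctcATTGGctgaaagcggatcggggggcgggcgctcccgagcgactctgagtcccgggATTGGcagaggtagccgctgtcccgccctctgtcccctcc

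Of the 4 motifs searched on both strands, the NF-Y box CCAAT was in the promoters of 13 of 15 sterol genes, 4 of 4 regulators and 7 of 11 fatty acid genes, against 37.4% of 32851 RefSeq mouse promoters of the same length. The sterol genes without it were Acat2 and Dhcr7, and the fatty acid genes without it were Acaca, Fads2, Fads6 and Elovl6. The sterol regulatory element core TCACNCCAC was in Hmgcs1 alone among the 30 promoters and in 1.24% of all promoters. The E-box CACGTG was in Hsd17b7, Sc5d, Insig1 and Elovl5, against 7.15% of all promoters, and the cAMP response element TGACGTCA was in Elovl5, against 1.79%. No searched motif overlapped another in the sequences shown. A match is a run of letters and not a measured site, and these shares are descriptions. For Acaca, Acacb and Tm7sf2 the RefSeq promoter lay 65.8, 19.0 and 9.35 kb away from the gene start in the deposited table, so for these 3 the sequence and the measured window may not be the same place.

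Values are given as signal per kilobase, the deposited mean coverage times 1000, in a promoter window of 6000 bases or over the gene body. The promoter values were whole multiples of the worth of 1 read, so the sequenced fragments (read pairs) behind them could be recovered. Promoter H3K27ac at the 37 genes lay above that of most genes in all 4 H3K27ac libraries. The median of the 37 was 17.8 in KO and 24.2 in WT of the vitro pair, where all genes had medians of 6.52 and 6.78, and, without the vitro label, 22.8 in KO and 16.5 in WT, where all genes had 8.16 and 7.43. Median H3K27me3 at their promoters was 3.52 in KO, near the 3.74 of all genes, and 1.54 in WT, below the 3.18 of all genes. In WT the fatty acid branch had a median of 3.18, as all genes had, and the sterol branch 1.31. Median H3K36me3 was 4.58 in KO and 7.65 in WT, against 2.96 and 2.68 over all genes.

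Keratins mark ductal tumour cells, and their promoters carried H3K27ac: Krt8 had 165 in KO and 147 in WT of the vitro pair, and 82.5 and 37.4 without the vitro label. Krt7 had 14.4 in KO and 40.6 in WT of the vitro pair, and 27.9 and 21.2 without the label. Epcam and Cdh1, further epithelial markers, had 2.57 and 5.72 in vitro KO cells against 2.87 and 24.0 in vitro WT cells, which leaves Epcam low in both. Without the label, Epcam had 11.8 in KO and 7.54 in WT, and Cdh1 23.3 and 18.7. The summed H3K27ac of 4 fibroblast markers was 50.7 in KO and 13.1 in WT of the vitro pair and 78.2 and 33.0 without the label. That of 4 leukocyte markers was 54.4 and 41.6 in the vitro pair, and 54.7 and 29.6 without the label. No marker was at 0 in any H3K27ac library; the part of these shifts in the results below was not tested, and fewer cells of a type and less signal per cell cannot be told apart.

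In the vitro cells, H3K27ac at promoters of the early mevalonate steps, of the regulators and of several desaturases was lower in KO than in WT. Ratios are log2((KO + floor) / (WT + floor)), where the floor is the 25th percentile of the positive values of the pair (2.17 per kilobase here), and a gene counts as lower or higher at a 1.5-fold difference on that scale. Of the 37 genes, 13 were lower, where 13.7% of all genes passing the floor were lower, and 2 were higher, where 10.9% of all genes were. The median log2 ratio was -0.29, against -0.07 over all genes. In the sterol branch 7 of 18 were lower and 0 higher (median -0.24), among the regulators 3 of 5 were lower and 1 higher (median -0.61), and in the fatty acid branch 3 of 14 were lower and 1 higher (median -0.29). The sterol and fatty acid medians differed by 0.05, far less than the spread among genes within either branch. With centring, quantile normalization or the trend of the ratio with level removed, 9, 13 and 11 of the 37 genes were lower and 2 higher each time. Of all genes, 11.1%, 11.8% and 10.8% were lower under these scalings, and 13.0%, 12.2% and 13.0% were higher.

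Cyp51, the demethylase that trims lanosterol (chromosome 5, 4081145 to 4104746, mm10, minus strand), stood furthest apart. Its promoter had a signal of 46.7 in KO and 206 in WT, from 408 and 1791.5 fragments. In WT it ranked at place 8 of 25450 genes, and in KO at place 1551. Without the floor it was 4.41-fold lower in KO, with a 95% interval from counting alone of -2.30 to -1.99 on the log2 scale. Lss, which closes squalene epoxide into lanosterol, had 8.69 in KO and 19.4 in WT (log2 ratio -0.99). These were the only lower genes among the 11 from squalene to cholesterol, whose median was -0.15. Squalene synthase Fdft1 had 13.5 in both genotypes, squalene epoxidase Sqle 27.3 in KO and 27.9 in WT, and Dhcr7, the last reductase of the pathway, 23.6 and 26.4.

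The steps to farnesyl diphosphate were lower more evenly: 5 of 7 passed 1.5-fold, and all 7 ratios lay below 0 (median -0.65). Fdps, which makes farnesyl diphosphate (chromosome 3, 89093588 to 89101959, mm10, minus strand), had 10.6 in KO and 32.5 in WT (log2 ratio -1.44, from 93 and 283 fragments). Phosphomevalonate kinase Pmvk had 8.52 in KO and 16.8 in WT, and mevalonate kinase Mvk 14.4 and 24.9. Hmgcs1, which makes HMG-CoA, had 15.4 in KO and 25.5 in WT, and the isomerase Idi1 13.3 and 21.4. The Mvk window is shared with Mmab, which starts 209 bases away. The decarboxylase Mvd (18 in KO, 21.4 in WT) and the thiolase Acat2 (17.8 and 21.7) did not reach 1.5-fold, and their counting intervals included no difference.

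Among the regulators, Srebf2 (chromosome 15, 82147181 to 82205379, mm10, plus strand) had 43.1 in KO and 85.6 in WT (log2 ratio -0.95). Insig1 had 37.5 in KO and 58.3 in WT (-0.61), and the sterol carrier Stard4 14.9 and 24.2 (-0.63). Srebf1 was lower by less than 1.5-fold, at 53.0 and 73.5. Soat1, which stores cholesterol as esters, went the other way with 29.4 in KO and 15.9 in WT (0.80).

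In the fatty acid branch the differences lay at the desaturases, with none of the 5 genes of acetyl-CoA supply and synthesis and none of the 3 elongases past 1.5-fold. Fads6, a member of the fatty acid desaturase family (chromosome 11, 115279622 to 115297663, mm10, minus strand), had 6.58 in KO and 25.5 in WT (log2 ratio -1.66). Scd1, which makes monounsaturated fatty acids, had 12.7 in KO and 29.9 in WT (-1.11), while its paralog Scd2 had 64.2 and 33.3 (0.90). Fads2, the first desaturase of the polyunsaturated route, had 14.4 in KO and 24.2 in WT (-0.68). Fatty acid synthase Fasn was among the most acetylated promoters in both genotypes, with 85.2 in KO and 96.2 in WT. The citrate lyase Acly had 42.9 and 44.4. Acaca and Acacb, the acetyl-CoA carboxylases, had at most 3.45 in either genotype. Their RefSeq promoters lay 65.8 and 19.0 kb from the gene starts in the deposited table, so these windows may lie elsewhere. Acaca, with 1.60 in KO and 3.45 in WT, fell just short of 1.5-fold because of the floor. Its log2 ratio was -0.57 with the floor and -1.11 without it, from 14 and 30 fragments.

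**Figure D1:**
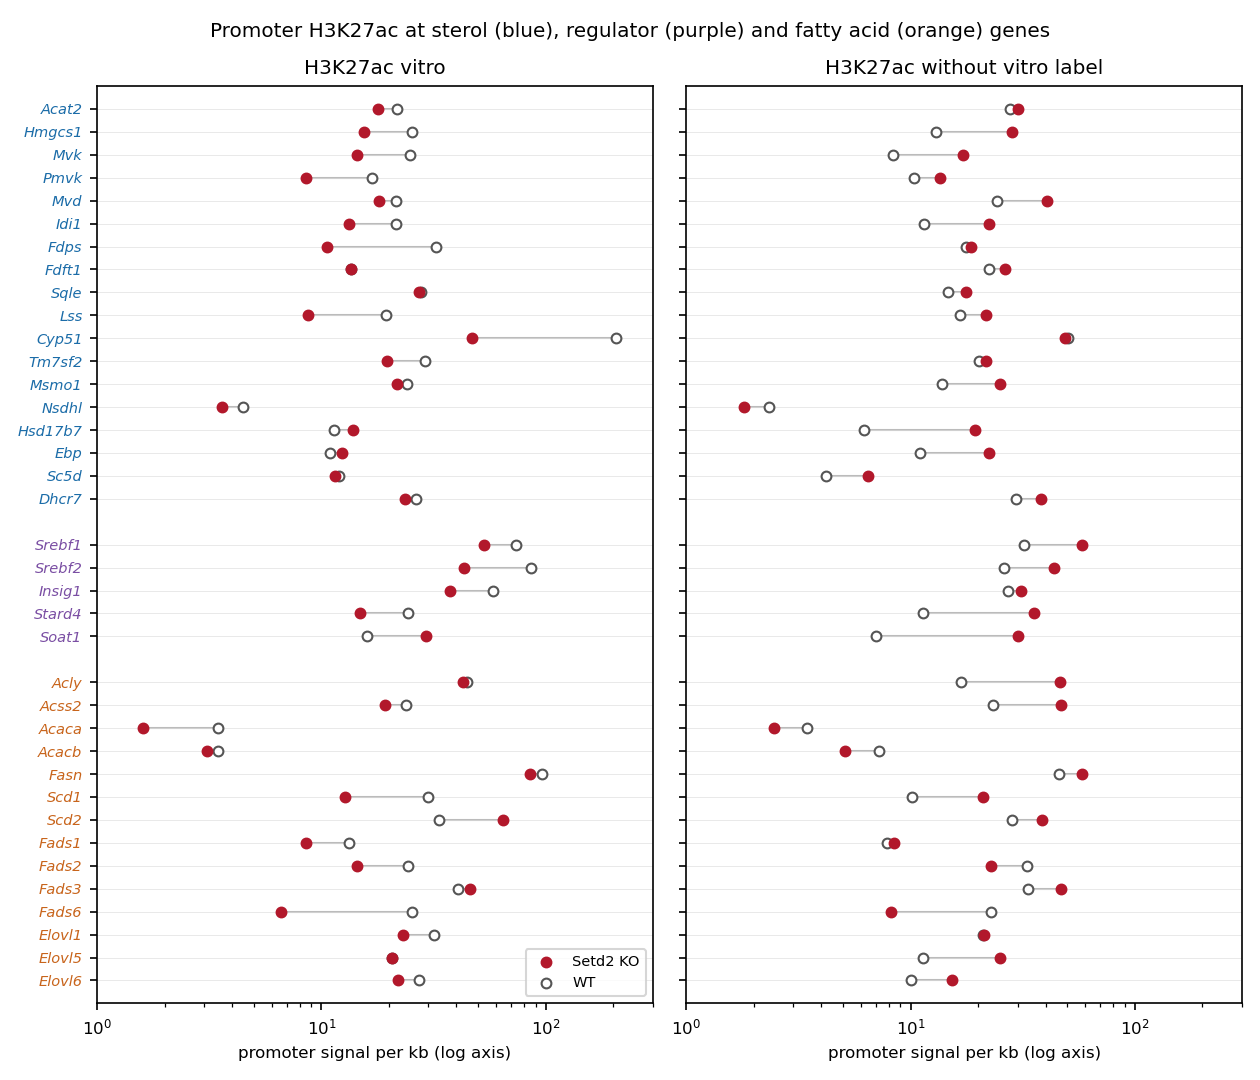
Promoter H3K27ac as signal per kilobase (log axis) for each of the 37 genes in KO (filled red) and WT (open), in the vitro pair (left) and the pair without the vitro label (right), 1 library per point. In the vitro pair most red points lie left of the open ones, furthest for Cyp51 (46.7 in KO, 206 in WT); in the other pair most lie to the right.

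Without the vitro label, H3K27ac at these genes was more often higher in KO, about as often as at all genes. Of the 35 genes passing the floor (Nsdhl and Acaca did not), 15 were higher, where 33.3% of all genes were higher, and 1 was lower, where 11.5% of all genes were. The median log2 ratio was 0.40, against 0.32 over all genes. With ratios centred on the median of all genes, 7 were higher and 3 lower, and with quantile normalization or with the trend of the ratio with level removed, 4 were higher and 3 lower. Of all genes, 16.8%, 17.7% and 15.7% were higher under these 3 scalings, and 20.8%, 17.6% and 15.4% were lower. The sterol median of 0.33 became 0.02 with centring, 0.02 with quantile normalization and -0.01 with the trend removed. The fatty acid median of 0.40 became 0.08, -0.14 and -0.27 under the same scalings, so neither branch kept its direction under every scaling.

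The highest ratios in this pair were at genes of sterol storage and transport. Soat1 had 30.2 in KO and 7.04 in WT (log2 ratio 1.70), and Stard4 35.5 and 11.3 (1.41). Acly, which supplies cytosolic acetyl-CoA, had 46.2 in KO and 16.7 in WT (1.31), and Hsd17b7, a ketosteroid reductase of the late sterol pathway, 19.4 and 6.21 (1.26). The Hsd17b7 window is shared with 3110045C21Rik, which starts 168 bases away. Hmgcs1 had 28.3 in KO and 13.0 in WT, the fatty acid elongase Elovl5 25 and 11.4, and the acetyl-CoA synthetase Acss2 46.7 and 23.3. Cyp51 had 49.0 in KO and 50.1 in WT, a log2 ratio of -0.03. Fads6 was the gene that was lower, with 8.21 in KO and 22.9 in WT (-1.19).

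Set side by side, the KO over WT ratio was lower in the vitro pair than in the other pair at 33 of 35 genes, where 69.2% of all genes were. The median difference, vitro minus other, was -0.88, against -0.38 over all genes. It was at least 1.5-fold lower in the vitro pair at 23 genes, where 38.7% of all genes were, and at least 1.5-fold higher at 0, where 12.1% of all genes were. All 17 sterol genes and all 5 regulators had a lower ratio in the vitro pair (medians -0.89 and -1.25), as did 11 of 13 fatty acid genes (median -0.49). The exceptions were Scd2 (0.51) and Acacb (0.23). The median difference was -0.49 with centring, -0.49 with quantile normalization and -0.39 with the trend with level removed.

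Some genes lay past 1.5-fold in opposite directions in the pairs. Hmgcs1, Mvk, Idi1, Srebf2, Stard4 and Scd1 were lower in KO in the vitro pair and higher in KO in the other, 6 of 35 genes, where 2.8% of all genes were. That count was 0 with centring, 1 with quantile normalization (Stard4) and 0 with the level trend removed. Of all genes, 0.93%, 1.25% and 0.94% were past 1.5-fold in these directions under the same scalings. Fads6 alone was lower in both, where 2.29% of all genes were, and Soat1 alone higher in both, where 5.25% of all genes were. Fads6 and Soat1 kept these calls under the 3 scalings. Fads2 joined Fads6 with centring, and Fads2 and Cyp51 did with quantile normalization and with the level trend removed.

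**Figure D2:**
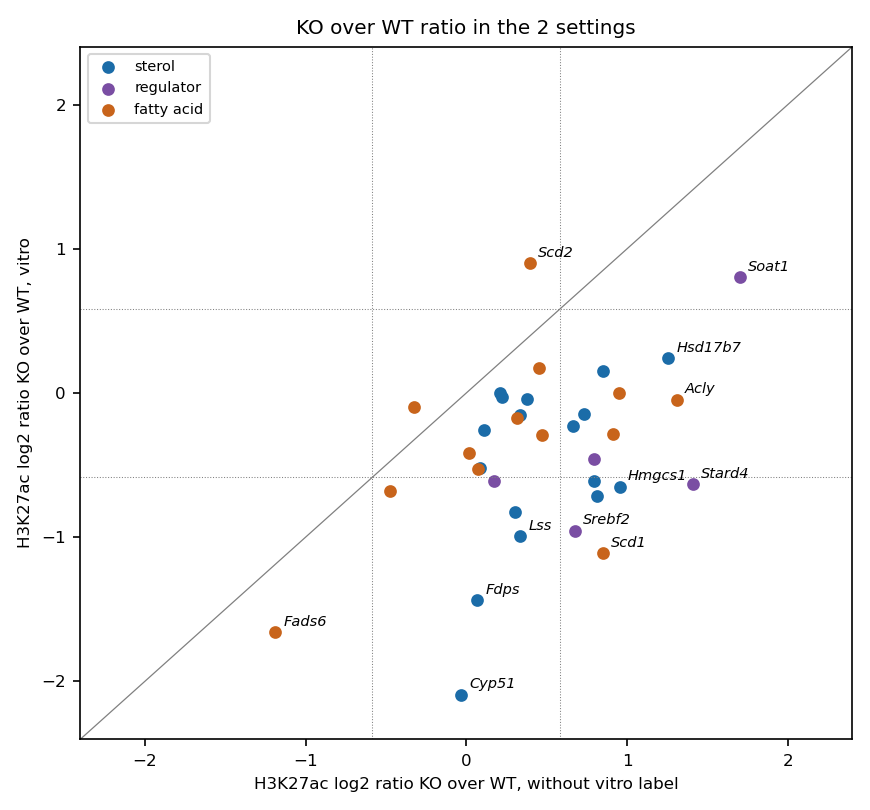
KO over WT log2 ratio of promoter H3K27ac in the pair without the vitro label (horizontal axis) and in the vitro pair (vertical axis), 1 point per gene (35 genes), coloured by branch, with 1.5-fold marked by dotted lines. Scd2 and Acacb lie above the diagonal and the other 33 genes below it; Cyp51 sits at -0.03 and -2.09.

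Within each genotype, the vitro library can be set over the other library, which uses the same 4 libraries again. In KO the 36 genes measured had a median log2 ratio of -0.23, with 13 lower, where 26.3% of all genes were, and 2 higher, where 16.5% were. In WT the 37 genes had a median of 0.65, with 20 higher, where 30.1% of all genes were, and 2 lower, where 16% were. Cyp51 was close in the KO libraries, at 46.7 in vitro cells and 49.0 without the label, while in WT it had 206 in vitro cells and 50.1 without the label. Srebf2 likewise had 43.1 and 43.4 in KO, against 85.6 in vitro cells and 25.9 without the label in WT. Srebf1, Insig1, Stard4 and Soat1 were also at least 1.5-fold higher in the vitro WT library, so all 5 regulators were. Setting and library cannot be told apart here, with 1 library for each.

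H3K27me3 at the promoters was more often higher in KO, in both branches and from few fragments at most genes. Of the 32 genes passing the floor, 20 were higher, where 30.1% of all genes were higher, and 3 were lower, where 16.8% of all genes were. The median log2 ratio was 0.92, against 0.18 over all genes. The sterol branch had 9 of 15 higher and 0 lower (median 0.84), the fatty acid branch 8 of 14 higher and 3 lower (median 0.81), and all 3 regulators that passed were higher (median 1.77). Idi1, Sqle, Tm7sf2, Srebf2 and Stard4 lay under the floor. With centring, quantile normalization or the level trend removed, 18, 18 and 17 genes were higher, where 23.2%, 23.0% and 22.7% of all genes were. Counts were small: the 37 genes had 0 to 371.5 fragments in KO (median 32) and 0 to 124 in WT (median 14). The 20 higher genes had 25 to 371.5 fragments in KO and 0 to 95.5 in WT. None of their counting intervals included equal signal, which is no further support, because the genes were picked for this difference. Acat2, Mvk, Fdps, Fdft1, Hsd17b7, Sc5d, Dhcr7, Srebf1, Acaca, Fads1 and Elovl5 lay under the floor of 1.54 in WT. These genes passed the floor through their KO signal alone.

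Fads6 carried the most H3K27me3 of the 37 genes in KO, with 40.8 in KO and 7.24 in WT (log2 ratio 2.27, from 371.5 and 66 fragments). Acss2 followed, with 33.2 in KO and 10.5 in WT (1.53). Ggt7, which starts 289 bases from Acss2, had more, with 52.7 in KO and 18.9 in WT. Which of the 2 genes this signal belongs to was not tested. Soat1 had 19.0 in KO and 4.28 in WT (1.82), so this gene was higher in H3K27me3 and in H3K27ac of both pairs. Fads2 had 14.1 and 5.32 (1.19), and Insig1 10.8 and 2.08 (1.77). Among the sterol genes the levels were lower: Pmvk had 8.24 in KO and 4.82 in WT, Nsdhl, a sterol dehydrogenase, 8.08 and 3.84, and Fdps 5.72 and 1.31. The Nsdhl window is shared with Cetn2, which starts 146 bases away and had 8.96 in KO and 3.51 in WT. Acat2 had 4.73 in KO cells, and the WT library listed it at 0.

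The genes lower in KO all belonged to the fatty acid branch. Acacb, the carboxylase whose product restrains mitochondrial fat oxidation, had 2.2 in KO and 13.6 in WT (log2 ratio -2.02, from 20 and 124 fragments). The RefSeq promoter of Acacb lay 19.0 kb from its gene start in the deposited table, so this window may lie elsewhere. Acly had 1.65 in KO and 3.73 in WT (-0.72). Elovl1, an elongase of very long chains, had no signal listed in KO (0), against 5.92 in WT. Cyp51 had 4.73 in KO and 7.01 in WT (-0.45), below 1.5-fold and with a counting interval that included equal signal. The genes lower in vitro H3K27ac and higher in H3K27me3 were Mvk, Pmvk, Fdps, Insig1, Scd1, Fads2 and Fads6, 7 of 32, where 4.78% of all genes were; the H3K27me3 libraries carry no vitro label. The count was 4 with centring, 5 with quantile normalization and 5 with the level trend removed, where 3.2%, 3.6% and 3.3% of all genes were. Mvk, Fdps, Fads2 and Fads6 kept both calls under all 3 scalings. The scalings use the same libraries, so this is no further support. Mvk and Fdps passed the H3K27me3 floor through their KO signal alone.

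**Figure D3:**
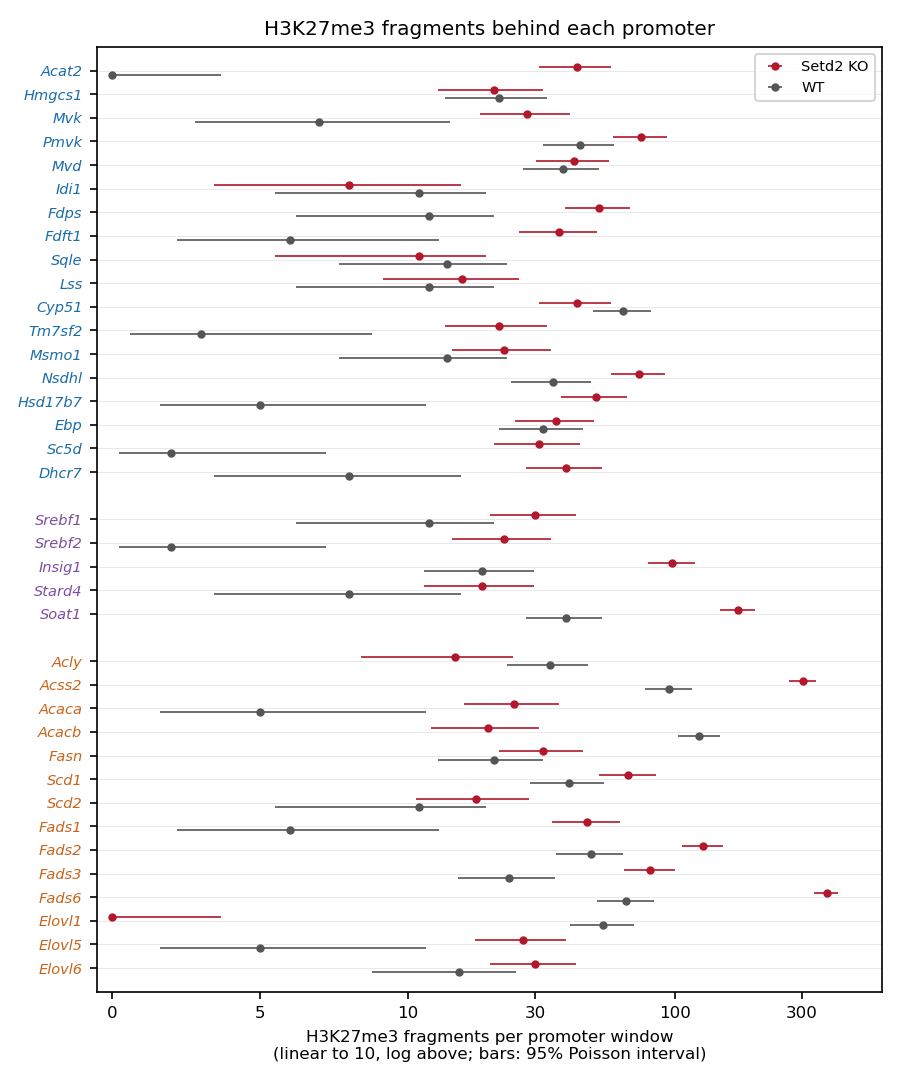
H3K27me3 fragments in the promoter window of each of the 37 genes in KO (red, upper) and WT (grey, lower), with 95% Poisson intervals; the axis is linear to 10 and logarithmic above. Fads6 and Acss2 reach 371.5 and 302 fragments in KO, while most genes lie under 100 in both genotypes; Acacb and Elovl1 show more in WT.

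H3K36me3, the mark that Setd2 writes, was lower in KO over 7 sterol genes, of which Cyp51 alone spanned at least 20 kb. Among the 7, Fdps, Pmvk and Tm7sf2 were listed at 0 in KO, and Msmo1 had 0.5 of a fragment there. Of the 32 genes passing the floor, 12 were lower, where 30.3% of all genes were lower, and 4 were higher, where 27.1% of all genes were. Over these 32 genes the median log2 ratio was -0.14, against -0.08 over all genes. With the trend of the ratio with level removed, 9 of the 32 were lower, about as often as at all genes (27.02%). Under that scaling 6 were higher, where 29.09% of all genes were. The sterol branch had 7 of 15 lower and 3 higher (median -0.58), the fatty acid branch 3 of 13 lower and 1 higher (median -0.10), and the regulators 2 of 4 lower and 0 higher. The sterol median minus the fatty acid median was -0.48, and -0.20 to -0.68 over the pseudocounts tried. In genes spanning at least 20 kb it was -0.14, with a sterol median of -0.24 and a fatty acid median of -0.10. The medians would stay the same at any lower ratio for the genes listed at 0 in KO or higher ratio for the gene listed at 0 in WT. That covers 1 direction only. If the zeros of Fdps, Pmvk and Tm7sf2 in KO were missed signal, the sterol median could lie nearer to the fatty acid median, which was not tested.

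Cyp51 again had one of the widest gaps, with 4.44 in KO and 29.8 in WT (log2 ratio -2.20, from 151 and 1024 fragments). Fasn (chromosome 11, 120805846 to 120824547, mm10, minus strand) had 9.73 in KO and 37.2 in WT (-1.69), although its promoter H3K27ac differed by under 1.5-fold in both pairs. Fdps had a listed value of 0 in KO cells, against 55.8 in WT cells from 668 fragments, the highest H3K36me3 of the 37 genes. Mvd had 12.4 in KO and 25.8 in WT (-0.92), the sterol isomerase Ebp 2.07 and 9.58 (-1.38), and Acss2 2.18 and 6.87 (-0.98). Scd2 had 4.45 in KO and 10.8 in WT (-0.93), Srebf1 7.37 and 14.1 (-0.74), and Insig1 9.26 and 15.4 (-0.60).

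Several genes were listed at 0 in 1 library, where no fold is given. In KO these were Fdps, Pmvk (11.2 in WT), Tm7sf2 (10.3), Scd1 (2.43) and Sc5d (1.66). The methylsterol oxidase Msmo1 had 0.5 of a fragment in KO and 188 fragments in WT. In WT these were Elovl1 (6.40 in KO), Idi1 (2.19) and Stard4 (0.62). All 8 spanned less than 15 kb, where zeros are common. Of all genes spanning 10 to 15 kb, 19.0% were at 0 in the KO library and 24.5% in the WT library. Of the 7 genes described here in that range, 4 were at 0 in KO and 1 in WT. For spans of 5 to 10 kb the shares of all genes were 32.8% and 41.3%, and 1 of 5 genes described here was at 0 in each library. Why the share at 10 to 15 kb was higher in KO was not tested. None of the 15 genes spanning at least 20 kb was at 0 in either library, and of those 3 were lower and 2 higher. The higher genes were Hsd17b7 (8.77 in KO, 2.67 in WT, log2 ratio 1.10), Fdft1 (10.9 and 4.15, 0.99), Lss (13.4 and 7.65, 0.64) and Elovl1.

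**Figure D4:**
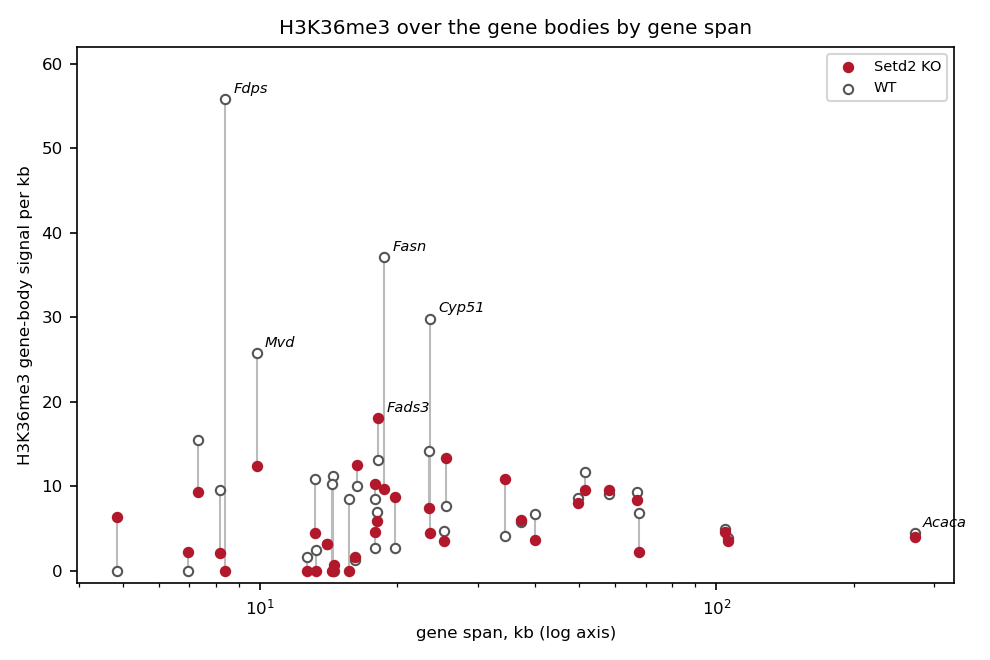
H3K36me3 signal per kilobase of gene body against gene span in kb (log axis) for each of the 37 genes, with KO (filled red) and WT (open) joined by a line. Fdps, Fasn, Cyp51 and Mvd show the widest gaps at spans under 25 kb, while genes of over 100 kb lie close together; Fdps lies at 0 in KO and 55.8 in WT.

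**Figure D5:**
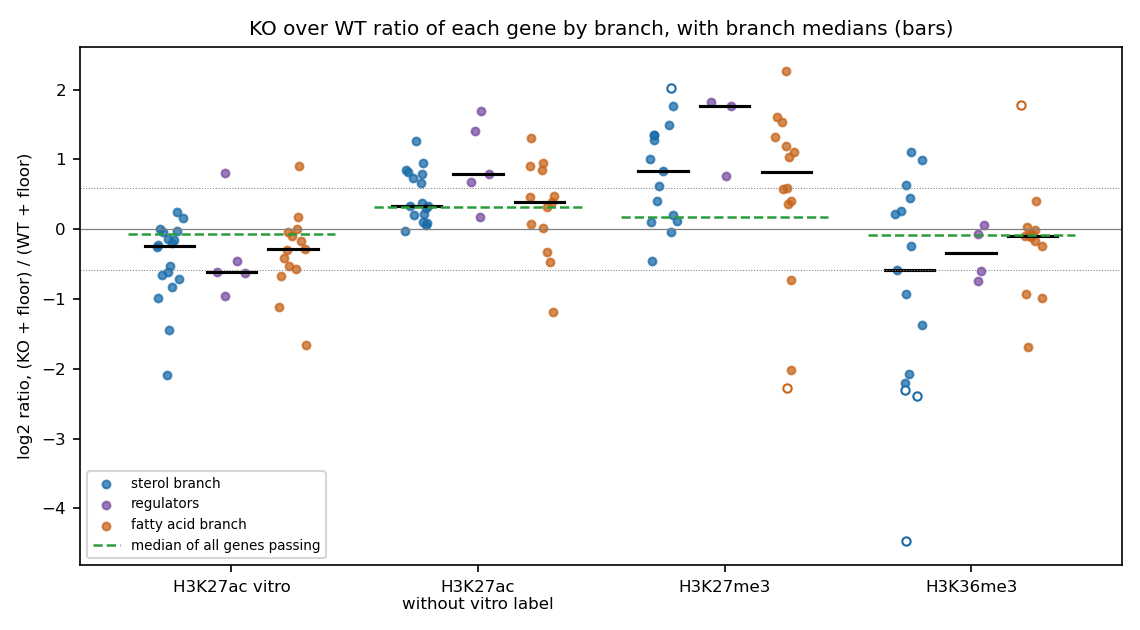
KO over WT log2 ratio with the floor added, for each gene passing the floor, in the 4 pairs of libraries, split into sterol branch (blue), regulators (purple) and fatty acid branch (orange), with branch medians as black bars and the median of all genes dashed. Open points were listed at 0 in 1 library, so their size depends on the floor; the sterol and fatty acid bars lie 0.03 to 0.06 apart in the promoter marks and 0.48 apart in H3K36me3.

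A list of 51 other lipid genes, among them SREBP processing, cholesterol export and triglyceride synthesis, was measured beside the 37. In the vitro pair 7 of its 47 genes passing the floor were lower and 4 higher (median log2 ratio -0.16), where 13.7% and 10.9% of all genes were. The lower ones with the widest gaps were Soat2, a cholesterol acyltransferase (28.8 in KO, 58.1 in WT), Mlxipl, the glucose-responsive factor ChREBP (2.06 and 5.52), and Dgat2, which makes triglyceride (18.1 and 34.5). The higher ones with the widest gaps were the acyl-CoA synthetase Acsl6 (31.1 in KO, 7.07 in WT), the cholesterol exporter Abca1 (7.55 and 1.26) and Insig2, which retains SREBP in the endoplasmic reticulum (6.81 and 2.76). Without the vitro label 18 of 50 were higher and 4 lower (median 0.36), where 33.3% and 11.5% of all genes were, led by Acsl5 (37.2 in KO, 9.09 in WT), and the exporter Abcg1 was lower (5.37 and 18.8). In H3K27me3 15 of 42 were higher and 8 lower (median 0.26), where 30.1% and 16.8% of all genes were. In H3K36me3 8 of 41 were higher and 6 lower (median -0.06), where 27.1% and 30.3% of all genes were. The shares of lower genes in the vitro pair and of higher genes without the label were thus near those of all genes.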

How the data were processed

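CUT&Tag signal was measured in 8 libraries, 1 per group, so no test was possible. The authors deposited signal as mean coverage per base of promoters or gene bodies; its scale is not stated in the labels. The submitters' processing notes list MACS2 2.2.7.1, Bowtie2 2.4.2, HOMER and the build mm10, without order, settings or duplicate handling. The deposited gene coordinates were used for position and span. Promoter values times 6000 were whole reads in 100% of values in each of 6 libraries (tolerance 0.0151 of the deposited sum), and gene-body values times span in at least 94.6% of those that could be checked. If the authors scaled to 10000000 fragments, which is assumed, the promoter libraries held 14503000 to 15215000 fragments and the gene-body libraries 14150000 to 14289000. No count test was run on the recovered reads, because each group holds 1 library. Counting intervals (95%; Poisson, or Clopper-Pearson on the split for ratios) cover counting error only, and PCR duplicates are not known.

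Log2 ratios were computed from the deposited signal as log2((KO + floor) / (WT + floor)); genes entered if their pair mean reached the floor (25th percentile of positive values: 2.17 and 3.27 for H3K27ac with and without the vitro label, 1.54 for H3K27me3, 2.63 for H3K36me3). This understates differences at low genes. No rows were joined. Genes were named if past 1.5-fold, up to 8 per direction and pair, and pathway genes up to 3; all 37 members could be named. The members, lists and thresholds were chosen with earlier results of these data known. Alternatives changed the pseudocount 5 times either way, the floor, the filter, the scaling, the fold and the gene span. Ratios were tested on simulated data. Python 3.11.15, numpy 2.4.6, pandas 2.3.3, scipy 1.17.1 and matplotlib 3.10.9 were used. Promoters came from RefSeq GRCm38.p6.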

Additional observations from a re-analysis of the deposited data

Results flagged for a closer look

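The KO over WT ratio of H3K27ac lay past 1.5-fold in opposite directions in the pairs at 6 of 35 genes. They were lower in the vitro pair and higher in the pair without the vitro label, where 2.8% of all genes were. The medians of both branches pointed in opposite directions too. So did the median over all genes, at -0.07 in the vitro pair and 0.32 in the other. The difference in log2 ratio, vitro minus other, was -1.60 at Hmgcs1, -1.53 at Mvk, -1.41 at Idi1, -1.63 at Srebf2, -2.04 at Stard4 and -1.96 at Scd1. For the branches, the vitro median minus the other median was -0.58 for the sterol genes and -0.69 for the fatty acid genes. Each pair is 1 KO and 1 WT library, so none of these differences was tested. With centring, quantile normalization and the level trend removed, 0, 1 and 0 of the 6 genes stayed past 1.5-fold in both pairs. Of all genes, 0.93%, 1.25% and 0.94% were past it in these directions under the same scalings. The fatty acid median without the label turned to -0.14 with quantile normalization and -0.27 with the level trend removed, and the sterol median to -0.0085 with the level trend removed, the same sign as in the vitro pair.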

How the results depend on the processing

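No paired analysis was possible because each group holds 1 library and the replicate numbers only name samples. In vitro H3K27ac the 13 lower genes became 6 with a 5 times larger pseudocount, 7 with the floor at the median of positive values and 4 at 2-fold, and the 2 higher genes became 0 at 2-fold. Without the vitro label, the 1 lower gene became 3 with centring, with quantile normalization and with the level trend removed; the 15 higher became 7 with the larger pseudocount and with centring, and 4 with quantile normalization, with the level trend removed and at 2-fold. In that pair the sterol median turned to -0.0085 with the level trend removed, the fatty acid median to -0.14 with quantile normalization and -0.27 with the level trend removed, and the Mvd ratio to -0.0014 with the level trend removed. In H3K27me3 the 3 lower genes became 1 with the median floor, and the 20 higher became 9 with the larger pseudocount and 7 with the median floor, where the sterol minus fatty acid difference was -0.69. In H3K36me3 the 12 lower genes became 7 with the larger pseudocount, 3 in genes of at least 20 kb and 7 at 2-fold, and the 4 higher became 0 with the larger pseudocount and 2 with the median floor, in genes of at least 20 kb and at 2-fold. The causes were not tested, apart from the fewer genes that a higher floor, fold or span leaves. The other 145 summary values moved by less than 1.5 times (counts) or 0.585 in log2 (medians), which still includes the sterol median without the vitro label falling to 0.02 with centring, the H3K27me3 sterol median to 0.28 with the median floor and the H3K36me3 branch difference of -0.14 at 20 kb and above. Of the values of single genes past 1.5-fold 379 stayed past it in the same direction and 94 fell short of it. The level trend for the difference between settings was chosen after seeing the data, as were the scalings for genes called in 2 pairs. Low H3K27me3 counts limit the smaller differences.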

Other observations

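Starts that lie close together did not always share a value. The promoter window of Acaca had 1.6 in KO and 3.45 in WT for vitro H3K27ac, while Tada2a, whose start in the table lies 72 bases away, had 13.7 and 12.4. For H3K27ac without the vitro label, Acss2 had 46.7 in KO and 23.3 in WT, and Ggt7, whose start lies 289 bases away, had 11.2 and 15.6. Which start the windows of Acaca and Acss2 were drawn on is thus not known. Mvk and Mmab, 209 bases apart, agreed closely, with 17.1 and 17.2 in KO, as did Nsdhl and Cetn2, 146 bases apart, with 1.81 and 1.97 in KO, both for H3K27ac without the vitro label.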
